A study of Homo sapiens and Mus musculus with 10 samples.

Results

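The genes described here are 10 components of the TEAD-YAP pathway, out of 19970 protein-coding genes on the autosomes and X. They were chosen by name: the DNA-binding factors TEAD1, TEAD2, TEAD3 and TEAD4, the co-activators YAP1 and WWTR1, and the target genes CCN1, CCN2, ANKRD1 and AMOTL2. Their coordinates and start sites were taken from GENCODE release 44 on GRCh38. The study profiled accessible chromatin by bulk ATAC-seq, in which the Tn5 transposase inserts adapters into open DNA, in 4 human cell lines and 1 mouse line with 2 libraries each. HEK293T (embryonic kidney cells carrying the SV40 large T antigen) and HFF1 (foreskin fibroblasts) grow attached and are called the adherent lines. GM12878 (a B-lymphoblastoid line) and K562 (an erythroleukaemia line) grow in suspension and are called the blood lines. The labels name no treatment and no genetic change, and both lines of a class shared a medium (DMEM for the adherent lines, RPMI for the blood lines). Each class holds 2 lines, so attachment, tissue of origin and medium cannot be told apart. The mouse line was grown without feeders and its libraries were not compared with the human ones.

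TEAD proteins bind DNA through a TEA domain and activate transcription mainly when joined by YAP1 or by TAZ, the product of WWTR1. The Hippo kinases phosphorylate both co-activators and keep them out of the nucleus, and attachment to a stiff surface favours their entry. CCN1 and CCN2 encode secreted matricellular proteins, ANKRD1 an ankyrin-repeat protein of muscle and other adherent cells, and AMOTL2 an angiomotin-family protein that itself binds and restrains YAP1. Expression of these 4 genes is commonly read as a measure of TEAD-YAP activity, and TEAD sites in cell-type-specific enhancers often lie near sites for AP-1.

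The sequences below come from sites where the adherent and blood lists differed. The first pair are the 250 bases before the annotated starts of CCN2 and ANKRD1, the genes whose start sites lacked a peak in most blood lists. They come from RefSeq promoters of GRCh38.p14, and 7 of the 10 genes had an entry there (CCN1, TEAD1 and TEAD4 had none). The others are windows of GRCh38 that reach 50 bp on either side of the summits of regions that had a peak in all 4 adherent lists and in no blood list. For CCN2, AMOTL2, CCN1 and YAP1 the first window is the region of that kind with the highest mean fold. The second windows of CCN1 and YAP1 were picked after their letters were seen, and windows of this kind without a match are not shown. Capitals mark exact matches to the TEAD letters GGAATG or the AP-1 letters TGACTCA on either strand (CATTCC and TGAGTCA when read from the other strand), and each sequence runs 5′ to 3′ on the strand of its gene. A match is a run of letters and not a measured binding site.
CCN2 promoter, chr6:131951373-131951622, minus strand: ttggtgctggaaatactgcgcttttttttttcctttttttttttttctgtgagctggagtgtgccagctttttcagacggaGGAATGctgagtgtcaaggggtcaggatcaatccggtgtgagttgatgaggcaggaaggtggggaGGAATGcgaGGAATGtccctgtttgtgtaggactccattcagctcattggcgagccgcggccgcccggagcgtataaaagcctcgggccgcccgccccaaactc
ANKRD1 promoter, chr10:90921088-90921337, minus strand: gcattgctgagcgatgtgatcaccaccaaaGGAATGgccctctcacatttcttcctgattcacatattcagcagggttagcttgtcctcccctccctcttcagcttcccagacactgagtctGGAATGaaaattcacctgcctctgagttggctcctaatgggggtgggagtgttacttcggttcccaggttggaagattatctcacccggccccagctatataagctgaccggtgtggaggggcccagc
CCN2 downstream region, chr6:131925001-131925101, minus strand: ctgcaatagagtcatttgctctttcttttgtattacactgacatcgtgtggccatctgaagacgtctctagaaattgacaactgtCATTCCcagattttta
AMOTL2 intron, chr3:134364171-134364271, minus strand: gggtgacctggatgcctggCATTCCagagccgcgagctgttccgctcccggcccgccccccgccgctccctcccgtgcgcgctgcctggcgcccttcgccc
CCN1 upstream region, chr1:85569285-85569385, plus strand: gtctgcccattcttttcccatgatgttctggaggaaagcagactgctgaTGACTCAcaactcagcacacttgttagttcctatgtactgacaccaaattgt
CCN1 second upstream region, chr1:85527328-85527428, plus strand: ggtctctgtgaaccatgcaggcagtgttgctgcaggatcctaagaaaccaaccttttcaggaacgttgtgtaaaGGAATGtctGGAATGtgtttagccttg
YAP1 upstream region, chr11:102011250-102011350, plus strand: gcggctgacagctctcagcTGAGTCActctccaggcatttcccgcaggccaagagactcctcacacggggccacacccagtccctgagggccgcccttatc
YAP1 downstream region, chr11:102256352-102256452, plus strand: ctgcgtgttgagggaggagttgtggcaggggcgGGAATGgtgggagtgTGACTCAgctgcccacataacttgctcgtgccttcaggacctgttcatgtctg

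In all, 3 TEAD matches stand in the CCN2 promoter and 2 in that of ANKRD1. Of 35116 RefSeq promoters, 11.9% held at least 1 match in the same 250 bases, 0.940% held 2 or more and 0.0826% held 3 or more. YAP1 and AMOTL2 each had 1 match in a promoter entry, and no match was found in the entries of TEAD2, TEAD3 and WWTR1.

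Each library is represented by 1 deposited peak list. The HEK293T lists were the shortest, with 52438 and 52137 peaks, and the HFF1 lists the longest, with 127359 and 120344. GM12878 had 101704 and 103715 peaks and K562 had 78601 and 71241. The background level, a stand-in for depth, was about 0.465 reads per window in both HEK293T libraries and between 1.71 and 2.43 in the others. A start site without a peak is a site where none passed the authors' threshold. The smallest pileup in a list was 5 reads in HEK293T and 8 to 10 reads in the other lines. Cell identity was checked on marker genes, counted as called in a line when both lists had a peak within 1 kb of a start site. K562 called 4 of 5 erythroid markers (70.4% of all protein-coding genes were called in K562) and the other 3 lines none. HFF1 called 5 of 5 fibroblast markers (76.2%), GM12878 3, K562 2 and HEK293T 1. HEK293T called 4 of 5 kidney-development markers (67.8%), HFF1 3, GM12878 2 and K562 1, so the kidney list overlapped between the adherent lines. Of 3 markers of all white blood cells, GM12878 called 3 (71.9%), K562 2, HFF1 2 and HEK293T 1, so that list did not separate the classes. Among them, PTPRC was called in GM12878 and HFF1 and had no start-site peak in K562. CD79A, CD79B and MS4A1 were called in GM12878 alone, GATA1, TAL1 and HBG2 in K562 alone, COL3A1 in HFF1 alone, and PAX2 and LHX1 in HEK293T alone. SALL1 was called in both adherent lines with no peak in a blood list, whereas CD22 and COL1A1 had a peak in all 8 lists, and the kidney marker PAX8 was called in the other 3 lines and had no peak in HEK293T.

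The TEAD genes had a peak within 1 kb of a start site in almost every list, in blood and adherent lines alike. The main region of TEAD1 (ENSG00000187079.20), chr11:12673828-12674824 over its first exon, had a fold of 14.5 and 13.0 in the GM12878 lists, 12.0 and 11.3 in K562, 9.39 and 10.4 in HEK293T and 10.6 and 8.98 in HFF1. The fold is the authors' own ratio of signal at the summit to the background near it in that library, so folds of different libraries are set side by side without a test. A second TEAD1 start site further into the gene, chr11:12827975-12828708, had folds of 10.6 and 10.5 in HFF1 against 6.14 and 5.47 in HEK293T, 5.41 and 5.03 in K562, and a single peak of 4.76 in GM12878 replicate 2. Both start sites were therefore open in HEK293T, HFF1 and K562.

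TEAD3 (ENSG00000007866.22) had a lower fold at its start site than TEAD1 in every list. Its region chr6:35496192-35497639 had folds of 4.08 and 4.23 in GM12878, 4.96 and 5.02 in K562, 5.74 and 5.31 in HEK293T and 4.06 and 4.56 in HFF1. TEAD2 (ENSG00000074219.14) had its highest-fold start-site region at chr19:49363061-49364151, where folds ran from 6.74 in HFF1 replicate 1 to 10.8 in HEK293T replicate 1. That region overlaps an exon of DKKL1 and lies outside TEAD2, with its summit 1.14 kb upstream of the nearest TEAD2 start site. It came within 1 kb of that start site only by its edge, so the peak cannot be given to TEAD2. No other TEAD2 start-site region had a peak in HEK293T. HFF1 had 2 further TEAD2 start-site regions that no other line held, with folds of 6.13 and 6.54 at one and 4.61 and 3.67 at the other.

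TEAD4 (ENSG00000197905.10) was the one TEAD gene not called in all 4 lines. Its main region, chr12:2958438-2960284, had folds of 6.48 and 6.14 in K562, 5.59 and 5.72 in HEK293T and 6.47 and 5.70 in HFF1, and no peak in either GM12878 list. GM12878 replicate 2 had a peak at the neighbouring region chr12:2960543-2960914, with a fold of 4.39 and a pileup of 13 reads. In K562, a blood line, the TEAD4 start site thus had a fold close to those of the adherent lists.

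YAP1 (ENSG00000137693.14) was called at its first start site in all 4 lines. The region chr11:102109881-102110796 had folds of 11.2 and 8.56 in GM12878, 9.22 and 8.76 in K562, 7.22 and 7.18 in HEK293T and 8.07 and 8.44 in HFF1. The lines thus had similar folds there, and GM12878 replicate 1 had the highest. A second region just inside the gene, chr11:102110977-102112293, had folds of 6.15 and 5.60 in HEK293T and 4.85 and 4.52 in HFF1 and no peak in any blood list. A further start-site region near the 3′ end, chr11:102225680-102226456, was found in HFF1 alone, with folds of 12.6 and 12.1. Away from start sites, HFF1 had 10 and 8 peaks inside YAP1 and none of the other 6 lists had any.

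WWTR1 (ENSG00000018408.15), which encodes TAZ, was called in every line but not at the same start site. The region chr3:149657480-149659097 had folds of 11.7 and 13.0 in HEK293T, 8.60 and 8.66 in GM12878 and 6.67 and 6.22 in HFF1, and no peak in K562. The K562 peaks, with folds of 6.63 and 8.52, lay at chr3:149575438-149576569, a start site deeper in the gene that also had peaks in GM12878 (5.10 and 5.49) and HFF1 (7.18 and 9.20) and none in HEK293T. HEK293T and K562 therefore shared no WWTR1 start-site region, whereas GM12878 and HFF1 held both. A further start-site region, chr3:149702861-149703931, had folds of 9.0 and 9.75 in HFF1 and a single peak of 4.76 in GM12878 replicate 2.

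Among the target genes, ANKRD1 and CCN2 were called at their start sites in the adherent lines and in neither blood line. ANKRD1 (ENSG00000148677.7) had 1 start-site region, chr10:90921010-90921723, with folds of 9.49 and 11.1 in HEK293T and 7.28 and 7.42 in HFF1. The pileups there were 24 and 26 reads in HEK293T and 24 and 22 in HFF1. None of the 4 blood lists had a peak at this site.

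CCN2 (ENSG00000118523.6) had folds of 8.38 and 7.72 in HEK293T and 4.65 and 5.09 in HFF1 at chr6:131950510-131951573. Neither GM12878 list and not K562 replicate 1 had a peak there. K562 replicate 2 had one with a fold of 4.23 and a pileup of 17 reads, against 47 to 76 reads in the adherent lists. It lay 0.681 to 0.844 kb from the 5′ end, and K562 replicate 1 had a peak at 1.12 to 1.32 kb, outside the 1 kb window. The HFF1 replicate 1 fold of 4.65 came from 0.616 to 0.829 kb, and its peak over the 5′ end had a fold of 4.05. These folds thus belong to different parts of the region. The CCN2 start site was called in the adherent lines and in no blood line, but 1 of 4 blood lists held a peak.

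AMOTL2 (ENSG00000114019.15) had a peak in all 8 lists at chr3:134374046-134375204, with higher folds in the adherent lists than in the blood lists. The folds were 10.5 and 9.95 in HEK293T and 7.78 and 7.45 in HFF1, against 4.90 and 5.39 in GM12878 and 6.13 and 4.69 in K562. The pileups were 68, 64, 116 and 97 reads in the adherent lists and 16 to 25 reads in the blood lists. The 2 classes did not overlap in either value, but the share of all genes for which this holds was not counted. A second AMOTL2 start-site region, chr3:134373553-134373904, had folds of 4.40 and 4.49 in HEK293T and 3.89 and 3.92 in HFF1 and no blood peak.

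CCN1 (ENSG00000142871.18) did not share the pattern of the other targets at its start sites. Its region chr1:85580515-85581535 had folds of 5.51 and 5.57 in GM12878, 5.72 and 5.40 in K562, 5.69 and 6.10 in HEK293T and 2.80 and 3.35 in HFF1. The lowest folds were thus those of a fibroblast line, although the HFF1 pileups of 81 and 84 reads were among the highest of the 8 lists. A start site of CCN1 was called in all 4 lines, but not at the same place. Measured from the 5′ end, the GM12878 peaks lay at 0.548 to 0.749 and 0.537 to 0.737 kb. The HFF1 peaks lay at -0.147 to 0.305 and -0.153 to 0.277 kb. Peaks of these 2 lines thus did not overlap, and their folds belong to different parts of the region.

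**Figure D1:**
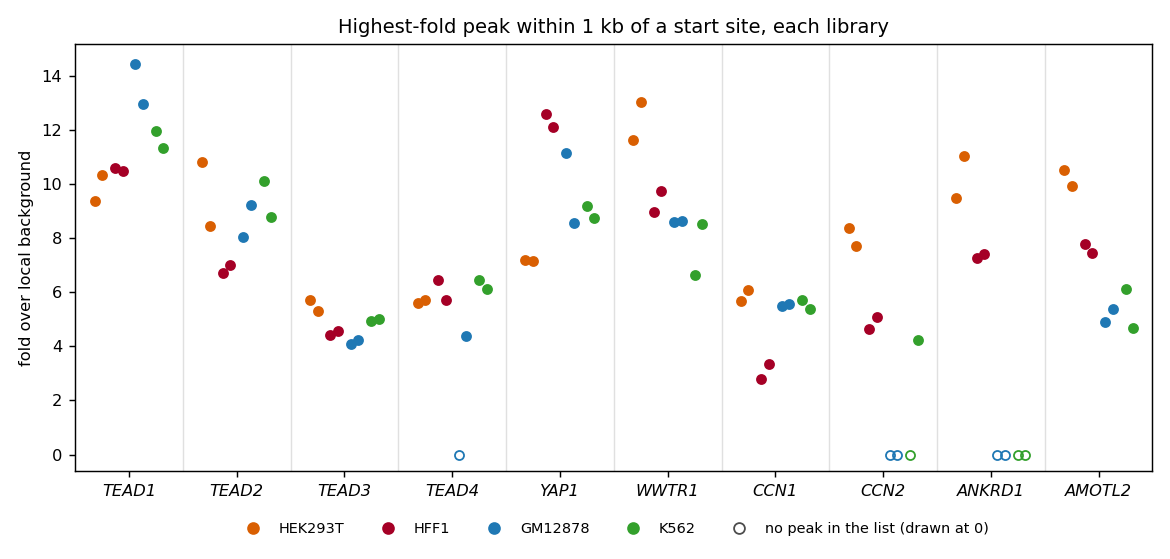
Fold over local background of the highest-fold peak within 1 kb of any start site of each gene (vertical axis, linear ratio given by the authors), 1 point per library and coloured by line. Open circles at 0 mark lists with no such peak: all 4 blood lists for ANKRD1, 3 of 4 for CCN2 and 1 of 4 for TEAD4. The adherent points of AMOTL2 lie between 7.45 and 10.5 and its blood points between 4.69 and 6.13. The share of all genes with such a gap was not counted.

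Counted over the 10 genes, start-site calls were more complete in the adherent lines, but the counts were small. HEK293T called 10 of 10 (67.8% of all protein-coding genes were called in HEK293T) and HFF1 10 of 10 (76.2%). K562 called 8 of 10 (70.4%) and GM12878 7 of 10 (71.9%). The TEAD2 calls of HEK293T and GM12878 rested on the region over DKKL1. It held the only TEAD2 start-site peak of both HEK293T lists and of GM12878 replicate 2. With a 500 bp start-site window, HEK293T called 9 and GM12878 6. The counts were the same when the summit had to lie inside the 1 kb window, and those of HFF1 and K562 did not change. The full set of 8 lists held a peak for 7 of 10 genes, against 59.7% of all genes, so most of the 10 genes had an open start site in every library. ANKRD1 was the 1 gene of 10 called in both adherent lines with no peak in a blood list, a pattern found in 1.23% of all genes, and none of the 10 had the reverse pattern (0.596%). Without K562 replicate 2, CCN2 joined ANKRD1 and the count was 2.

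The number of peaks in each gene and the 100 kb on either side was compared next. Peak number follows depth and list length, so the whole-genome value stands beside each comparison. CCN1 had 14 and 12 peaks in HEK293T and 24 and 20 in HFF1, against 4 and 4 in GM12878 and 6 and 5 in K562. CCN2 had 8 and 8 in HEK293T and 16 and 18 in HFF1, against 3 and 3 in GM12878 and 7 and 5 in K562. AMOTL2 had 12 and 12 in HEK293T and 28 and 29 in HFF1, against 7 and 8 in GM12878 and 5 and 4 in K562. For these 3 genes every adherent list lay above every blood list, even though the HEK293T lists were the shortest of all. This held for 1.32% of all protein-coding genes, and the reverse, which no member showed, for 7.43%. The mean difference on the log2(peaks + 1) scale, adherent minus blood, was 1.65 for CCN1 (3.14-fold), 1.27 for CCN2 (2.42-fold) and 1.52 for AMOTL2 (2.87-fold).

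ANKRD1 did not share this pattern, with 9 and 9 peaks in HEK293T, 17 and 14 in HFF1, 16 and 15 in GM12878 and 5 and 4 in K562. GM12878 was as rich in peaks as HFF1 there, and 8 of its regions were GM12878 only. YAP1 had 33 and 30 peaks in HFF1 and 12 and 14 in HEK293T, against 13 and 9 in GM12878 and 10 and 8 in K562, so HEK293T and GM12878 overlapped. Its log2 difference was 0.97.

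WWTR1 was richest in HFF1, with 51 and 50 peaks, followed by GM12878 with 31 and 33, K562 with 14 and 13 and HEK293T with 11 and 11. TEAD1 had 48 and 49 peaks in HFF1, 30 and 28 in K562, 17 and 14 in GM12878 and 13 and 13 in HEK293T, most of them inside the gene in HFF1 (35 and 33) and K562 (21 and 20). For both genes HFF1 held the most peaks and HEK293T the fewest, so the classes overlapped. TEAD2, TEAD3 and TEAD4 had 11 to 23, 6 to 22 and 12 to 29 peaks in the adherent lists and 22 to 27, 11 to 17 and 14 to 19 in the blood lists. The median log2 difference was -0.01 over the 4 TEAD genes, 0.58 over the 2 co-activators and 1.40 over the 4 targets. Over all 10 it was 0.37, against -0.24 over all protein-coding genes.

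**Figure D2:**
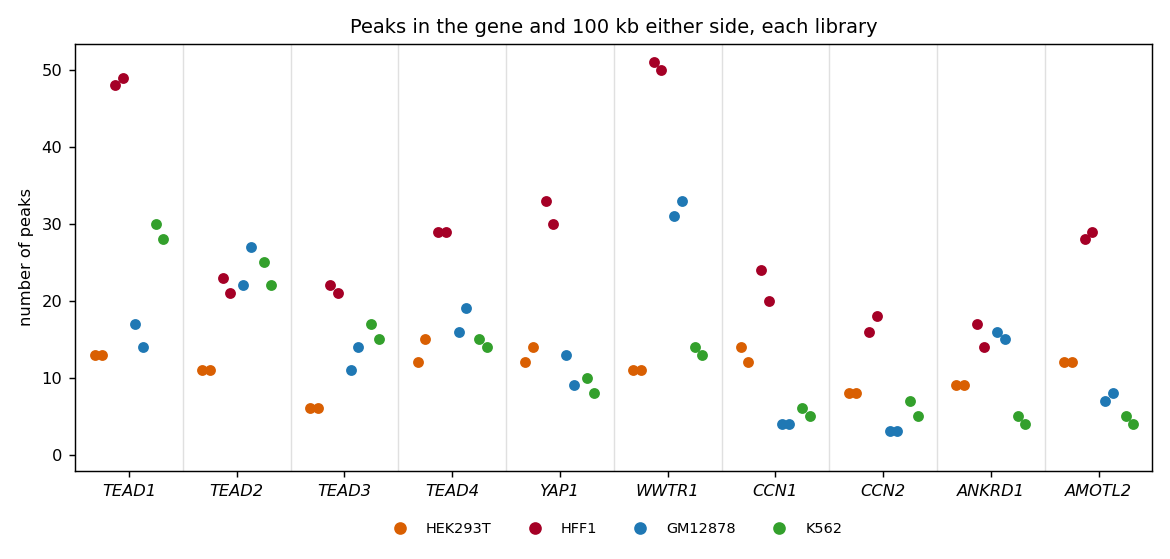
Number of peaks in each gene and the 100 kb on either side (vertical axis), 1 point per library and coloured by line. All 4 adherent points of CCN1, CCN2 and AMOTL2 lie above all 4 blood points (lowest adherent 12, 8 and 12, highest blood 6, 7 and 8), while HFF1 is highest and HEK293T lowest for TEAD1, TEAD3 and WWTR1.

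With 2 lines in each class, an exact two-sided permutation test of adherent against blood lines cannot give a p below 0.333, so that difference was described and not tested. What could be tested was whether the 4 lines differed by more than their replicates. Eta squared, the part of the variance of log2(peaks + 1) that lies between lines, was set against its value in every pairing of the 8 libraries. Of the 10 genes, 8 were called (exact permutation test, one-sided, adjusted p of 0.0363 or 0.0440, Benjamini-Hochberg over 19863 genes), against 64.9% of all genes. Eta squared was 0.987 for CCN1, 0.980 for CCN2 and 0.992 for AMOTL2. TEAD2 (adjusted exact permutation p = 0.109) and YAP1 (adjusted exact permutation p = 0.0745) did not pass. The labels do not say whether replicates are separate cultures, so these p-values measure the spread between the lists. The count fell to 5 without GM12878 replicate 1 (21.3% of all genes were then called) or without K562 replicate 2 (23.8%). It fell to 0 within 50 kb (10 of 10 at an unadjusted p under 0.05) and with the 50000 strongest peaks per library (7 of 10), and the share of all genes called was 0% in both. Leaving out GM12878 replicate 2 or HFF1 replicate 1 also lowered that share by over 1.5 times, to 21.3% and 23.2%, with 6 members called each time. The calls of TEAD1, WWTR1, CCN1, CCN2 and AMOTL2 held whichever single library was left out.

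Peaks of the 8 human lists were then merged where they overlapped, which gave 243200 regions, 426 of them in or within 100 kb of the 10 genes. Both lists of a line had to hold a peak for a region to count as called there. Regions called in both adherent lines with no peak in any blood list numbered 13 of 426, or 3.05%, against 0.715% of all regions. Of these, 10 lay around the targets and 3 around YAP1, and there were none around the 4 TEAD genes or WWTR1. As shares, these were 10 of 112 regions around targets, 3 of 120 around the co-activators and 0 of 194 around the TEAD genes. CCN1 had 4, AMOTL2 and YAP1 3 each, ANKRD1 2 and CCN2 1. At least 1 such region was found for 5 of the 10 genes and for 12.7% of all genes, 3 or more for 0.571% and 4 or more for 0.12%. Regions called in both blood lines alone numbered 2 of 426 (1.18% of all regions), 1 around TEAD2 and 1 around TEAD3, while 35.5% of all genes had at least 1. The count was 4 without GM12878 replicate 1 or without HEK293T replicate 1.

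**Figure D3:**
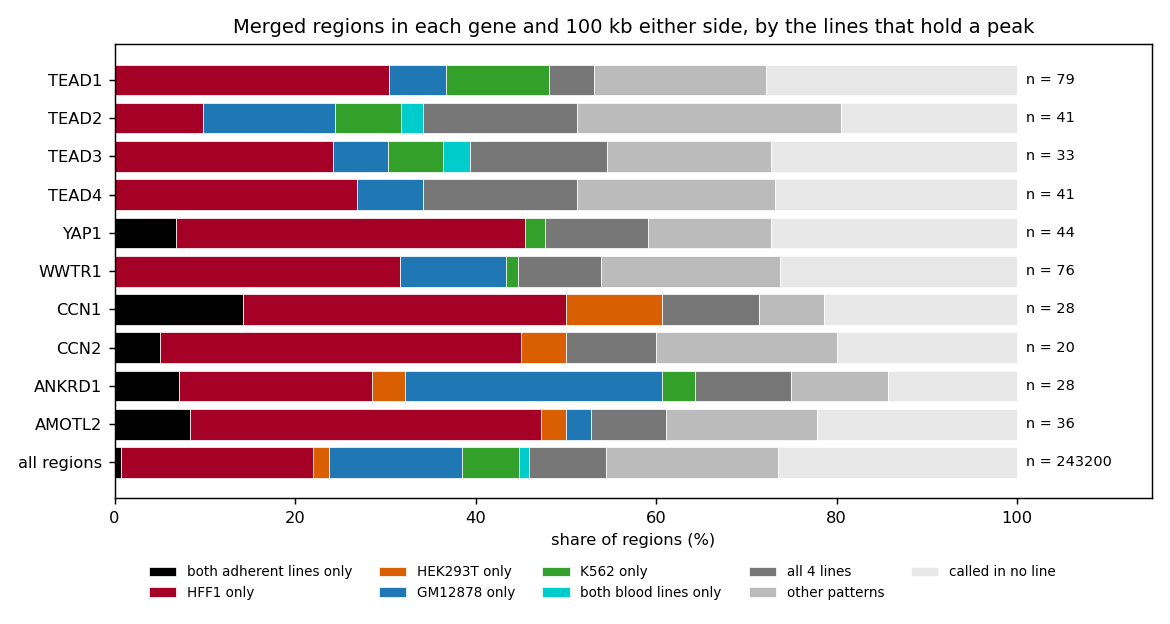
Share of merged regions (horizontal axis, percent) in each gene and its 100 kb on either side, by the lines that hold a peak, with the number of regions at the right and all 243200 regions in the lowest bar. Black segments, regions of both adherent lines only, appear for YAP1, CCN1, CCN2, ANKRD1 and AMOTL2 (14.3% of 28 regions for CCN1) and are absent for the 4 TEAD genes and WWTR1; pale segments are regions with no line called.

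The 13 regions were mostly distal: 9 lay in the flanks, 1 in the body of a gene and 3 at start sites. Around CCN1, they lay 59.2, 53.4 and 11.4 kb upstream, all within the neighbouring gene DDAH1, and 26.6 kb downstream of the 5′ end. The region 11.4 kb upstream, chr1:85568744-85569443, had folds of 7.24 and 6.08 in HEK293T and 9.02 and 9.62 in HFF1, and its window holds the AP-1 letters shown above. The region 53.4 kb upstream, chr1:85527057-85527556, had folds of 6.14 and 6.62 in HEK293T and 5.83 and 5.88 in HFF1. Its HEK293T pileups of 8 and 9 reads were close to the lowest that passed in that line, and its window holds 2 TEAD matches.

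Downstream of CCN2, the region chr6:131924935-131925181 had its summit 26.3 kb from the 5′ end, within LINC01013. Its folds were 8.81 and 6.68 in HEK293T and 10.2 and 10.1 in HFF1, and its window holds 1 TEAD match. ANKRD1 had its start site, described above, and a region 9.51 kb upstream, chr10:90930128-90931572, with folds of 8.39 and 7.99 in HEK293T and 8.73 and 7.44 in HFF1. The start-site window holds the first of the 2 matches printed in the promoter, and the upstream window holds none.

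For AMOTL2, the region of highest mean fold lay in an intron 11.3 kb from the 5′ end, chr3:134363948-134364951. Its folds were 8.05 and 11.7 in HEK293T and 6.18 and 6.54 in HFF1, with pileups of 23 and 40 against 83 and 82 reads. Beyond the 3′ end of AMOTL2, chr3:134333497-134334258 had folds of 8.15 and 7.22 in HEK293T and 7.44 and 9.41 in HFF1. AMOTL2 thus had a region of this kind at its start, inside it and beyond it.

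YAP1 was the one factor with such regions. The region 99.1 kb upstream, chr11:102010985-102011452, had the highest folds of the 13, 11.5 and 14.2 in HEK293T, with 9.30 and 8.99 in HFF1, and its window holds AP-1 letters. The region beyond the 3′ end, chr11:102256255-102256532, had folds of 6.11 and 7.42 in HEK293T and 9.61 and 7.19 in HFF1. It was the 1 region of 13 whose window holds both TEAD and AP-1 letters, a pairing found in 1.96% of all regions of the class. Across the 13 regions, pileups were 8 to 40 reads in HEK293T and 17 to 97 in HFF1.

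**Figure D4:**
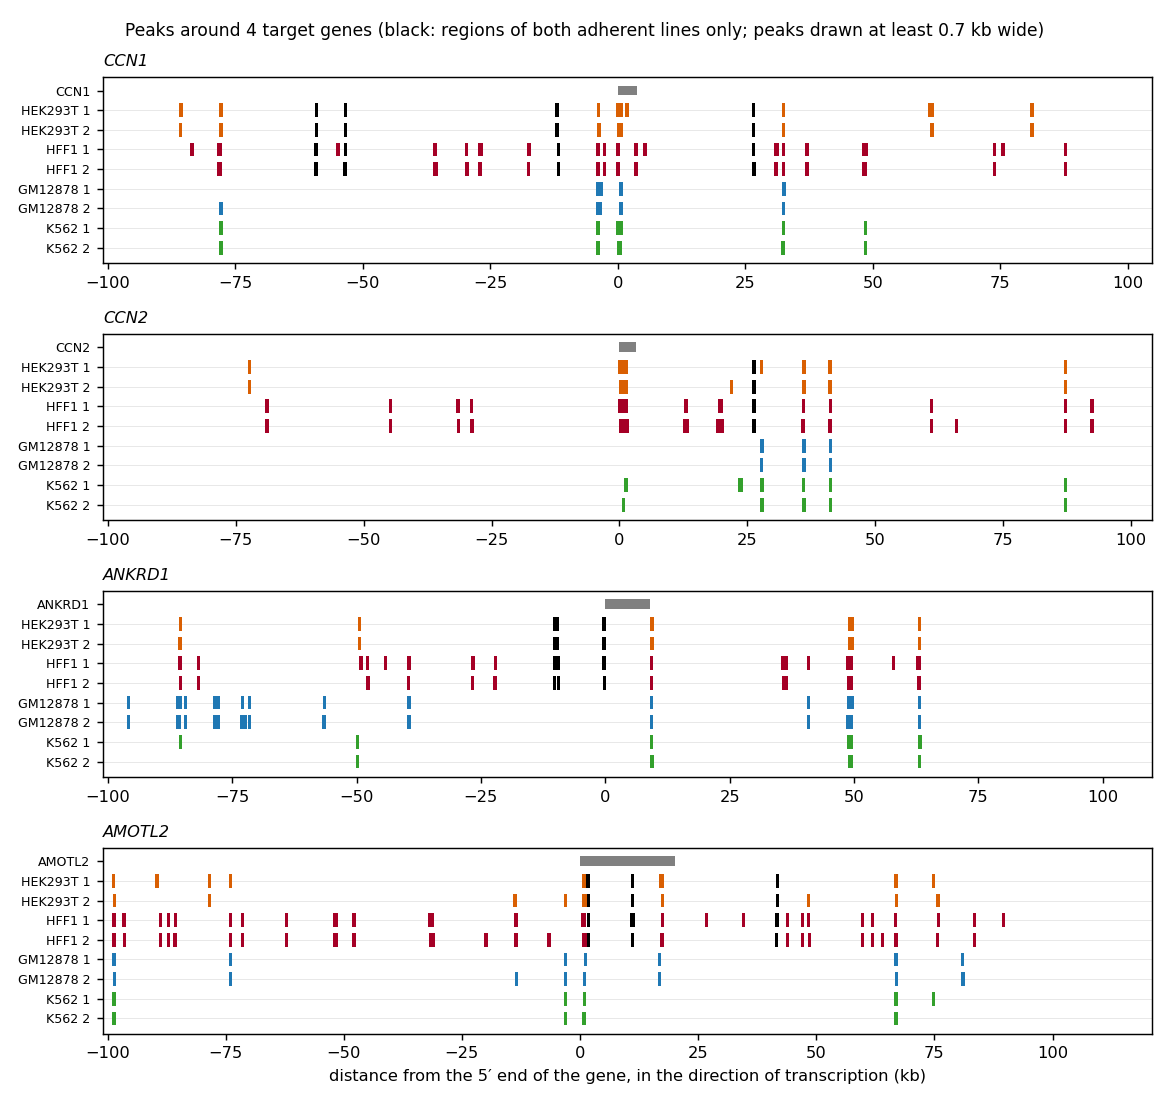
Peaks of each of the 8 human lists around CCN1, CCN2, ANKRD1 and AMOTL2, by distance from the gene's 5′ end in the direction of transcription (horizontal axis, kb), with the gene as a grey bar and 1 row per library. Black marks are peaks in regions of both adherent lines only, 4, 1, 2 and 3 around the respective genes, and coloured marks are all other peaks.

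TEAD letters were found within 50 bp of the summit in 5 of the 13 regions (38.5%), against 10.6% of all 1739 regions called in both adherent lines alone. With the letters read backwards (GTAAGG), the counts were 0 of 13 and 2.36%. AP-1 letters were in 3 of 13 (23.1%), against 9.83%. The counts are small, and the TEAD count was 2 within 25 bp and 7 within 100 bp of the summit, while the share over the class was 5.18% and 17.6%. Among the 126 member regions called in HFF1 alone, TEAD letters stood in 15 (11.9%) and AP-1 letters in 27 (21.4%), close to the 12.2% and 19% of all HFF1-only regions. TEAD letters were absent from the 34 member regions of GM12878 alone (2.48% of all such regions), the 17 of K562 alone (4.36%) and the 46 called in all 4 lines (3.54%). Over all 426 regions the share with TEAD letters was 8.92%, against 6.5% of all regions, and that with AP-1 letters was 13.8%, against 10.9%.

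Most line-restricted regions around the 10 genes belonged to HFF1, which called 126 of 426 alone (21.2% of all regions) and also had the longest lists. With equal lists of the 50000 strongest peaks, the count was 33 for HFF1 alone and 14 for HEK293T alone. In the full lists, the 126 HFF1-only regions were led by TEAD1 and WWTR1 with 24 each, YAP1 with 17 and AMOTL2 with 14. The HFF1-only region of highest mean fold around YAP1, chr11:102178026-102178663 inside the gene, had folds of 14.7 and 15.1. GM12878 called 34 alone (14.7%), with 9 around WWTR1 and 8 around ANKRD1, and K562 called 17 alone (6.31%), with 9 around TEAD1. HEK293T called 6 alone (1.78%), all around target genes, with 3 at CCN1 and 1 each at CCN2, ANKRD1 and AMOTL2. The HEK293T-only region of highest mean fold lay 61.6 kb downstream of the CCN1 start, chr1:85642208-85642514, with folds of 13.1 and 15.2. Without HEK293T replicate 2 the HEK293T-only count was 11. Another 46 regions were called in all 4 lines (8.53%), and 104 were called in none. Of the 426 regions, 41 also covered a start site of another protein-coding gene. Of those, 16 were called in all 4 lines and none in both adherent lines alone.

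The rest of the pathway was read from 3 lists. Of 14 upstream Hippo genes (kinases, scaffolds and regulators such as LATS1, LATS2, STK3 and NF2), 12 had a start-site peak in all 8 lists (59.7% of all genes). None was called in both lines of a class with no peak in the other class (1.23% of all genes for the adherent lines, 0.596% for the blood lines). AMOTL1, an angiomotin relative of AMOTL2, had no start-site peak in GM12878. In peak number, every adherent list lay above every blood list for 1 of the 14 (1.32% of all genes) and below for 1 (7.43%). The first was WWC1, which encodes the scaffold KIBRA, with 13 to 28 adherent and 9 to 12 blood peaks. WWC1 did not pass the line test (adjusted exact permutation p = 0.0659). The second was the kinase partner MOB1A, with 6 to 13 and 14 to 18. The median log2 difference in peak number over the 14 was -0.13, against -0.24 over all protein-coding genes. Of 4 VGLL genes, whose products also bind TEAD proteins, VGLL4 was called in all 4 lines and VGLL1 in none. VGLL2 and VGLL3 were called in both adherent lines and in neither blood line, with 1 blood list holding a peak for VGLL2 and 2 for VGLL3. The share of all genes with this looser pattern was not counted. In peak number, every adherent list lay above every blood list for 0 of the 4 VGLL genes (1.32% of all genes). The reverse held for 1, VGLL1 (7.43%).

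Of 18 further genes of a YAP/TAZ target signature (LATS2 among them, also counted above), 12 had a start-site peak in all 8 lists (59.7% of all genes). None was called in both lines of a class with no peak in the other class (1.23% of all genes for the adherent lines, 0.596% for the blood lines). HFF1 called all 18 (76.2% of all genes), HEK293T 16 (67.8%), GM12878 15 (71.9%) and K562 14 (70.4%). FOXF2, a forkhead factor of mesenchymal cells, was called in HFF1 with a single HEK293T peak and none in blood. AXL, a receptor tyrosine kinase, was called in HFF1 and K562, and NT5E, PTPN14 and RBMS3 had no start-site peak in K562. Regions of both adherent lines alone numbered 16 around 8 of the 18 genes (12.7% of all genes had at least 1), led by RBMS3 with 5 and MYOF with 3. For none of the 18 did every adherent list lie above every blood list in peak number, a pattern of only 1.32% of all genes. The median log2 difference was 0.36, against 0.37 over the 10 members and -0.24 over all protein-coding genes.

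In the mouse embryonic stem cells, 9 of the 10 orthologues had a start-site peak in both libraries, against 73.1% of mouse protein-coding genes (GENCODE M21, GRCm38). Ankrd1 was the exception, with no start-site peak in either list and 15 peaks around it in each. Ccn2 had folds of 6.25 and 6.43, Amotl2 5.44 and 5.70, and Ccn1 5.25 and 4.85. Tead1, with 8.81 and 8.60, and Wwtr1, with 8.02 and 8.53, had the highest start-site folds of the 10.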

How the data were processed

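Bulk ATAC-seq peak lists of 8 human libraries (GM12878, K562, HEK293T and HFF1, replicates 1 and 2) and 2 mouse embryonic stem cell libraries were used, 1 list per library, grouped by their labels. The submitters' processing notes name cutadapt 3.2, Bowtie2 2.4.2, Picard and MACS2 2.2.7.1 and the builds hg38 and mm10, without role or order; the read shift, duplicate filter and peak threshold are not given in the sources used here. In each deposited list the authors give every peak a fold (the linear ratio of summit signal to local background), −log10 of its p-value and of its q-value, and a score equal to 10 times the latter. The lowest deposited −log10 q was between 2.00 and 2.05.

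The pileup and local background of each peak were recovered from its fold and −log10 p, taken as (pileup + 1)/(background + 1) and a Poisson tail, and 100% of peaks were solved within 0.001. Pileups come from PCR reads with no molecular identifiers and are not counts of molecules. Peaks on the autosomes and X were assigned to genes in GENCODE release 44 within 1 kb of any start site, in the gene body or within 100 kb. Peaks of the 8 lists overlapping by 1 bp or more were merged into regions. Peak numbers were compared as log2(peaks + 1), with the pseudocount of 1, and 107 genes without variance were left out of the line test. The start-site peak of highest fold, and the region of highest mean fold in each class, were the ones named. Letters were searched in GRCh38 on both strands. The scripts used Python 3.11.15, numpy 2.4.6, pandas 2.3.3 and scipy 1.17.1 and were tested on simulated data. Alternatives were other windows, stricter or equal-length lists, other overlaps and pseudocounts, a replicate block and each library left out.

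The members and lists were chosen with earlier results of these data known. Of the B-cell markers examined, 1 is not reported here.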

Additional observations from a re-analysis of the deposited data

How the results depend on the processing

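Over 19 alternatives, 150 counts stayed within 1.5 times the reported one and 21 moved. Of the single-gene and background values, 225 stayed, 33 moved and 36 no longer passed the threshold. Equal lists of the 50000 strongest peaks moved the most: GM12878 then called 3 members at start sites, regions of HFF1 alone were 33 and of HEK293T alone 14, the TEAD letters were in 2 of 9 regions of both adherent lines only (10.9% of all such regions), 5 members had all adherent lists above all blood lists (3.54% of all genes) and 1 below, and the line test called 0 (0% of genes). That test also called 0 members within 50 kb (adjusted exact permutation p = 0.0531), where regions of HEK293T alone were 1 and of both blood lines alone 0. A 500 bp start-site window gave 2 adherent-only start sites, and a window of 25 bp on either side of the summit left TEAD letters in 2 regions. Without single libraries, the line test called 5 to 8 members (21.3% to 59.9% of all genes, against 64.9% with all 8 libraries), adherent-only start sites were 1 to 2, regions of HEK293T alone 6 to 11, of both blood lines alone 2 to 4, and members with all adherent lists below 0 to 1. In the alternative chosen after seeing the data, which kept HEK293T, HFF1 and K562 because their peak names share a prefix, 5 members had all adherent lists above K562 (6.63% of all genes). Replicates sharing a number did not deviate together in peak number (correlation across genes between -0.0168 and 0.0133). This cannot show whether libraries of the same number were handled together. With the replicate block, the line test called 0 members (6 at an unadjusted p under 0.05) and 0% of genes. The 24 pairings of that block cannot give a p below 0.0417. HEK293T depth limits what its missing peaks can show, and the cause of these shifts was not tested.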
